A study of Mus musculus with 2 samples.

Results

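Transcripts of 9 cell cycle genes were looked for in spatial transcriptomics (ST) data of young adult mouse liver. The genes were the proliferation markers Mki67 and Top2a, the mitotic kinase Cdk1 with the cyclins Ccna2 and Ccnb1, the replication genes Pcna and Mcm2, and the cycle-entry genes Ccnd1 and Myc. They were chosen by name, with earlier results of these data known, and 8 of the 9 had a row among the 19465 genes of the count tables. Ccnb1 is not analysed here.

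The tissue was liver of naive, untreated female mice of 8 weeks, fixed in formalin and embedded in paraffin, with a section of 5 μm cut from 1 AEG-1-WT mouse and another from 1 AEG-1-C75S littermate, called WT and C75S below. The AEG-1-C75S line carries a CRISPR/Cas9 knock-in that replaces the palmitoylated cysteine of AEG-1 with serine, and both genotypes came from matings of heterozygotes. The change is in the germ line, so all cells of the C75S animal carry it, and the sources used here do not name the strain. With 1 animal per genotype, genotype, animal and section cannot be told apart.

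In the 10x Visium assay, neighbouring probes bound to an RNA are joined, captured on barcoded spots and counted by unique molecular identifiers (UMIs). A spot is a small region of tissue that can hold several cells, so its counts belong to a region and not to a cell, and fewer cells that express a gene cannot be told apart from less RNA per cell. After 7 and 4 spots with more than 50000 UMIs were left out, 2309 WT spots held 42246988 UMIs (median 16830 per spot) and 2163 C75S spots held 41674347 (median 18808). The hepatocyte markers Alb, Apoa1, Ttr and Serpina3k were present in both sections and together held 173700 and 180298 counts per 1e+06 UMIs (CPM). The sections share 1896 spot barcodes, which are positions of the slide design.

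A dividing cell passes from G1 into S phase, where its DNA is copied, and through G2 into mitosis. D-type cyclins such as cyclin D1, and transcription factors such as MYC, act at the entry from rest into the cycle, the MCM helicase and PCNA act at the replication fork, and cyclin A2, CDK1 and topoisomerase II alpha act from S phase into mitosis. Most hepatocytes of the adult liver are in a resting state, from which they can return to the cycle after injury or loss of tissue.

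Positions are on the mouse genome (mm10, the same assembly as GRCm38). Mki67 (ENSMUSG00000031004) spans chr7:135689784-135716450, Top2a (ENSMUSG00000020914) chr11:98992947-99024199 and Cdk1 (ENSMUSG00000019942) chr10:69335146-69352912. Ccna2 (ENSMUSG00000027715) spans chr3:36564865-36573038, Pcna (ENSMUSG00000027342) chr2:132249286-132253180 and Mcm2 (ENSMUSG00000002870) chr6:88883474-88898780. Ccnd1 (ENSMUSG00000070348) spans chr7:144929931-144939831 and Myc (ENSMUSG00000022346) chr15:61985341-61990361. Mki67 and Ccnd1 are on the same chromosome, and the other members each have one of their own.

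The promoters of Mki67, Top2a and Cdk1 are shown. Each pair of these genes had a co-detection ratio above 1 at matched depth in both sections, as described further on. The intervals of Top2a with Cdk1 in WT and of Mki67 with Cdk1 in C75S include 1. Ccna2 was also above 1 with Mki67 and with Cdk1 in both sections, but not with Top2a in C75S. Its promoter window is not used here. A link between promoter letters and co-detection was not tested. Genes of G2 and mitosis are known for promoters with a CHR element and CCAAT boxes. The stretches come from RefSeq (GRCm38.p6), are written 5′ to 3′ on the minus strand and end before the transcript start, and capitals mark CHR elements (TTTGAA or TTCGAA) and CCAAT boxes on either strand, so that TTCAAA and ATTGG are the same elements read on the other strand.
Mki67, chr7:135716451-135716629: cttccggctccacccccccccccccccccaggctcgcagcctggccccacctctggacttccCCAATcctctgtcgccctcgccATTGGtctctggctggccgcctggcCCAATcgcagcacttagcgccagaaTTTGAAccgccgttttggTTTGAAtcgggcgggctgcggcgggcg
Top2a, chr11:99024200-99024379: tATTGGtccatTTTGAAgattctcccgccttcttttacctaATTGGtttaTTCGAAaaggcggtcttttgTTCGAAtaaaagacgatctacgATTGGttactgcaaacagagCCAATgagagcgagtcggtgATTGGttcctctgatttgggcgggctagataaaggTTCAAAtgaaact
Cdk1, chr10:69352913-69353092: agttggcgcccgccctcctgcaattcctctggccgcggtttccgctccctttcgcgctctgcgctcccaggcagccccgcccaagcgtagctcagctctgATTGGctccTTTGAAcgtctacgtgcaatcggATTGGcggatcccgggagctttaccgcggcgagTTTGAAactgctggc

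The stretch of Mki67 held 2 CHR letters and 3 CCAAT boxes, that of Top2a 4 and 5, and that of Cdk1 2 and 2. The 250 bases before the start were then searched in the same way for all 32851 RefSeq promoter windows. Of those windows, 17.1% held a CHR match, 33.8% a CCAAT box and 6.02% both. Mcm2 held 1 of each, and the windows of Pcna and Ccnb1 held no CHR match and 1 and 2 CCAAT boxes. A match is a description of the letters and not a bound site, and the windows of Ccna2, Ccnd1 and Myc are not used here.

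Transcripts of all 8 members with a row were counted in both sections, at very different depth. Ccnd1, which encodes cyclin D1, had 5159 UMIs in WT and 4727 in C75S and was found on most spots. Pcna, the sliding clamp of the replication fork, had 1 and 3 UMIs, at or under the 3 counts taken as the floor, so no ratio is given for it and it passed no filter. The probes differ from gene to gene, and the levels below are compared between sections and along the lobule, not between genes.

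Of the proliferation markers, Mki67, which encodes the antigen Ki-67 of cycling cells, had 357 UMIs in WT and 279 in C75S. Its level was 8.45 CPM in WT (95% exact Poisson interval 7.60 to 9.37) and 6.69 CPM in C75S (5.93 to 7.53). It was found on 13.5% of the WT spots (95% exact binomial interval 12.1 to 15.0) and on 11.4% of the C75S spots (10.1 to 12.8). All intervals cover counting error only. Most of these spots held a single Mki67 UMI, namely 279 of 312 in WT and 222 of 247 in C75S, and the highest counts on a spot were 6 and 5. Top2a, which encodes the topoisomerase that untangles sister chromatids, had 150 and 149 UMIs, or 3.55 CPM (3.01 to 4.17) and 3.58 CPM (3.02 to 4.20), and the sections differed by less than the counting error.

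Of the mitotic genes, Cdk1 had 260 UMIs in WT and 251 in C75S, at 6.15 CPM (5.43 to 6.95) and 6.02 CPM (5.30 to 6.82). Ccna2, the cyclin A2 gene, had 212 and 146 UMIs, at 5.02 CPM (4.37 to 5.74) and 3.50 CPM (2.96 to 4.12). Cdk1 was thus alike in the sections within counting error, while the Ccna2 intervals did not overlap and the WT section was the higher. Mcm2, a subunit of the replicative helicase, had 215 and 225 UMIs, at 5.09 CPM (4.43 to 5.82) and 5.399 CPM (4.72 to 6.15), which overlap. In WT and C75S, Ccna2 was found on 7.97% of the spots (6.90 to 9.15) and 6.06% (5.09 to 7.15), intervals that overlap slightly. Cdk1 was found on 10.3% and 10.7% of the spots, Mcm2 on 8.88% and 9.57% and Top2a on 6.28% and 6.20%, and for Cdk1 and Top2a the small difference in share ran opposite to that in CPM. For each of these 4 genes no spot held more than 4 UMIs.

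Ccnd1 was at 122 CPM in WT (119 to 125) and 113 CPM in C75S (110 to 117), and 83.5% and 81.2% of the spots held a UMI of it. Myc, which encodes a transcription factor of growth and cycle entry, had 324 UMIs in WT and 886 in C75S, at 7.67 CPM (6.86 to 8.55) and 21.3 CPM (19.9 to 22.7). Its share of spots was 13.0% (11.7 to 14.5) and 32.7% (30.8 to 34.8). After thinning to 10000 UMIs per spot, the Myc shares were 7.33% and 18.9%, so the order did not rest on the deeper C75S spots. That thinning left out 31 WT and 397 C75S spots with fewer UMIs.

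**Figure D1:**
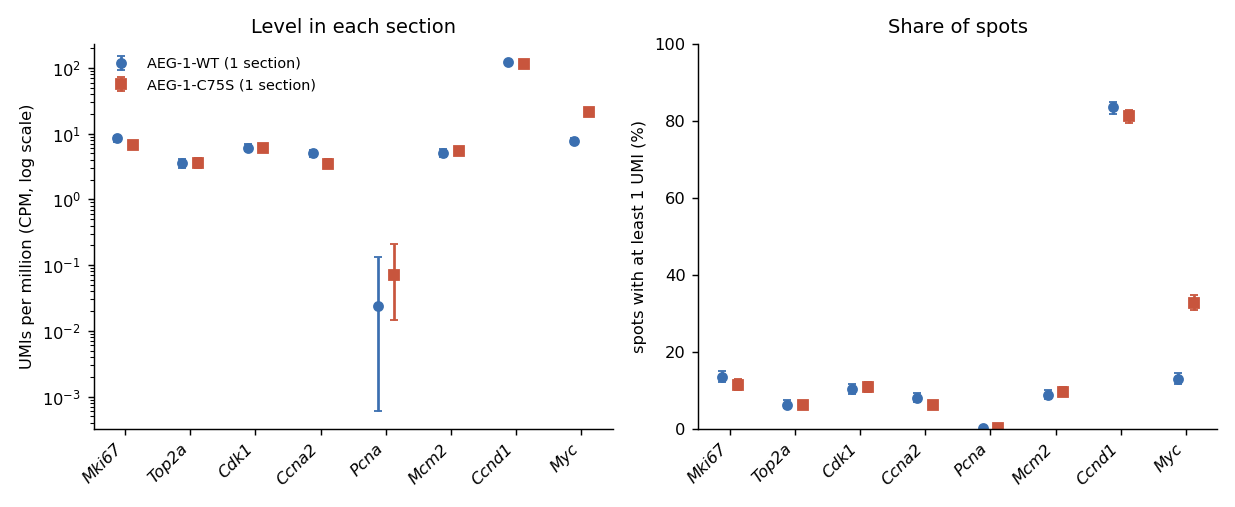
Level (CPM, log scale) and share of spots with at least 1 UMI (%) of the 8 measured members in 1 WT section (circles) and 1 C75S section (squares), with 95% exact intervals for counting error. Myc stands apart between the sections at 7.67 and 21.3 CPM, and Pcna lies at 1 and 3 UMIs.

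Between the sections, Myc was the only member at least 1.5-fold apart, with a log2 ratio of C75S over WT of 1.47 (95% interval 1.29 to 1.66), that is 2.77-fold. Of the 12004 genes that reached 50 UMIs in the sum of the sections, 2.29% were at least 1.5-fold higher and 5.2% at least 1.5-fold lower in C75S, and the median gene was at -0.05. Ccna2 was at -0.52 (-0.83 to -0.21) and Mki67 at -0.34 (-0.57 to -0.11), lower in C75S but short of 1.5-fold. Ccnd1 was at -0.11 (-0.16 to -0.05), Cdk1 at -0.03, Top2a at 0.01 and Mcm2 at 0.09, and the last 3 intervals included 0. The sign of the Cdk1 value turned with other scalings. With 1 section per genotype there is no replicate and no test, and every ratio compares these libraries, not the conditions.

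Cell type markers differed between the same sections. The sum of 5 Kupffer cell markers was 866 CPM in WT and 1159 CPM in C75S, with all 5 higher in C75S, and that of 4 portal connective tissue markers was 140 and 68.7 CPM, with all 4 lower. The 5 cholangiocyte markers were at 129 and 96.6 CPM, of which Spp1 made up 108 and 80.4 CPM. No marker of these lists was at 0 UMIs in either section, and their part in the Myc, Mki67 and Ccna2 values was not tested.

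The other genes of the cell cycle were described from 5 lists of 109 genes, none of them a member, of which 104 had a row and 90 had at least 50 UMIs. These lists, too, were chosen with earlier results of the data known. Of these 90, 3 were at least 1.5-fold higher in C75S and 10 were at least 1.5-fold lower, or 3.33% and 11.1%, against the 2.29% and 5.2% of all genes. These shares were not matched for UMIs, and the share of all genes depends on the minimum. At least 1.5-fold lower were 1098 of 13459 genes with a minimum of 10 UMIs and 331 of 10394 with 200. Both list genes with the largest ratios are growth arrest genes. Cdkn1a, which encodes the CDK inhibitor p21, was at 3.15 CPM in WT and 10.4 CPM in C75S (log2 ratio 1.72, 1.44 to 2.01). Btg2, an antiproliferative gene, was at 15.5 and 43.5 CPM (1.49, 1.36 to 1.62). These 2 genes and Myc were thus higher in the same section, but their list was not higher as a whole. Of the 13 tested genes on the list of CDK inhibitors and cell cycle brakes, 7 were lower in C75S. That is 53.8% against 59.7% of all genes, with a median of -0.04 against -0.05, so the list stood near all genes. At least 1.5-fold apart were 2 higher and 2 lower. On this list 3 intervals lay above 0 and 6 below, but the share of such intervals over all genes was not counted.

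Lowest against WT were Wee1, which encodes the kinase that holds CDK1 inactive, at 9.92 and 2.74 CPM (log2 ratio -1.86, -2.17 to -1.56), and Tk1, the thymidine kinase of S phase, at 82.1 and 29.7 CPM (-1.47, -1.56 to -1.37). Mcm10 and Ccne2 of the G1/S list were also lower, at -0.78 and -0.81, and so was the CDK inhibitor gene Cdkn1c at -0.70. On the G2/M and mitosis list, 24 of 31 genes were lower in C75S, or 77.4% against 59.7% of all genes, with a median of -0.20. Those at least 1.5-fold lower were Pbk, Cenpf, Ccnb2, Gtse1 and Ckap2, from -0.67 to -1.07, each with at most 129 UMIs in a section. On the G1/S and DNA replication list 15 of 25 genes were lower, with a median of -0.12.

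Of the MYC network, Max, the partner through which MYC binds DNA, was at 6.77 and 6.96 CPM (log2 ratio 0.04, -0.20 to 0.28), within counting error. Mycn, a paralog of Myc, had 24 and 42 UMIs, a log2 ratio of 0.83 (0.07 to 1.61). It was the only other gene of that list past 1.5-fold, at a low count, and the median over its 8 genes was -0.15.

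**Figure D2:**
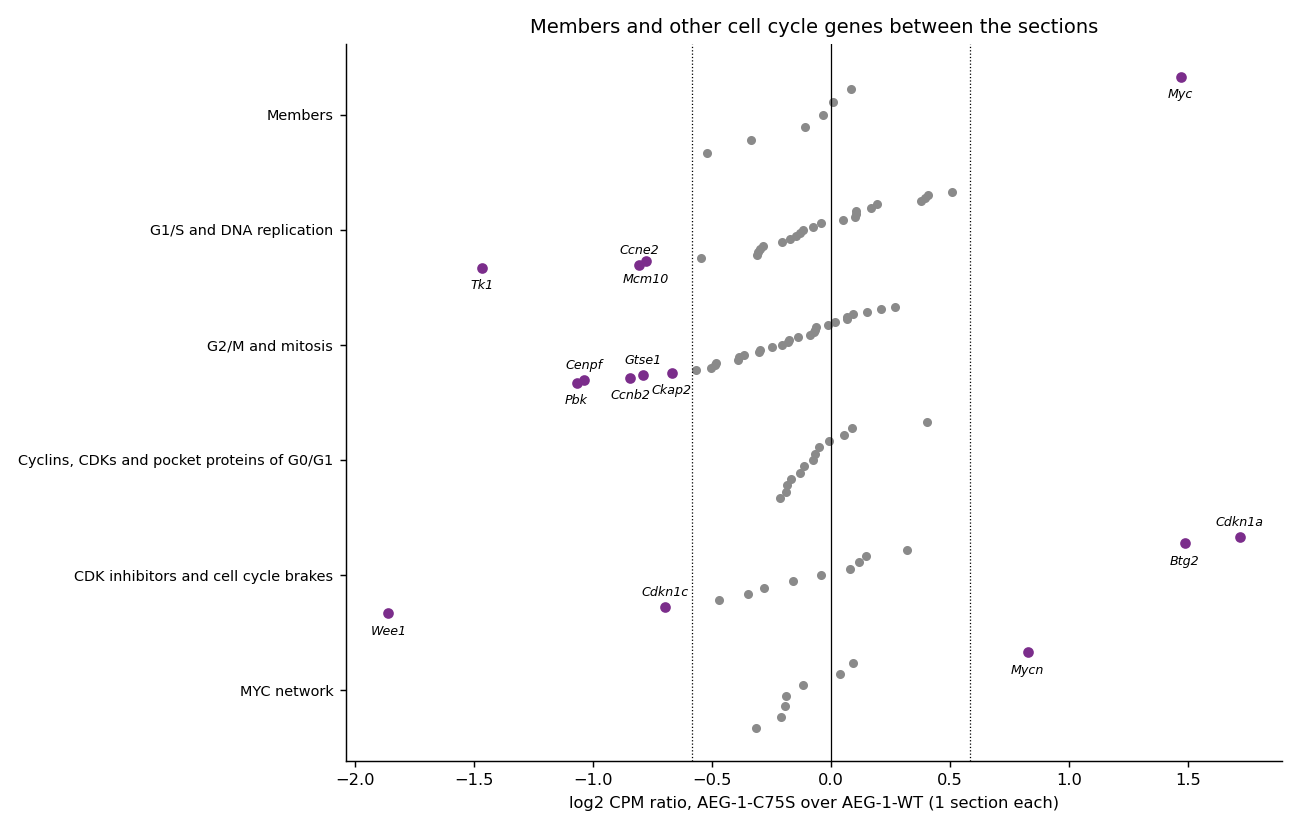
Log2 CPM ratio of C75S over WT (1 section each) for the 7 members and the 90 other cell cycle genes with at least 50 UMIs, by list, spread vertically in order of the ratio; dotted lines mark 1.5-fold and named purple points lie past it. Myc, Cdkn1a, Btg2 and Mycn lie to the right, and 10 genes led by Wee1 and Tk1 lie to the left.

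To follow the members along the liver lobule, the spots of each section were ranked by the ratio of Cyp2f2, a periportal gene, to Cyp2e1, a pericentral gene, and divided into 5 bins of nearly equal numbers of spots, from bin 1 at the portal end to bin 5 at the central end. Bin 1 held 2444 CPM of Cyp2f2 and 2154 CPM of Cyp2e1 in WT, and bin 5 held 370 and 13180 CPM. Each gene was tested with edgeR's quasi-likelihood test on the 10 sums of 5 bins in 2 sections, with the section as a block and Benjamini-Hochberg adjustment over 12002 genes. The bins lie within 2 animals. The p-values set the difference between bins against the variation left after bin and section, which includes counting error. Between the ends, 9.42% of all genes passed at an adjusted p under 0.05 as higher at the portal end and 9.44% as higher at the central end. Between the middle bin and both ends, 1.67% passed as higher and 1.23% as lower in the middle.

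Ccnd1 peaked in the middle of the lobule in both sections. In WT it was at 98.7, 128, 140, 130 and 110 CPM from bin 1 to bin 5. In C75S it was at 97.2, 110, 134, 123 and 103 CPM. Each section thus had its highest value in bin 3 and its lowest in bin 1, and neither end reached the interval of the middle. The log2 ratio of the middle to the ends was 0.42 in WT and 0.43 in C75S, and the fitted value was 0.42 (adjusted p = 5.34e-09, edgeR's quasi-likelihood test). Ccnd1 was the only member of 7 that passed as higher in the middle, and none passed as lower. At an unadjusted p under 0.05 of the same edgeR test, 3 of the 7 were higher, or 42.9% against 7.04% of all genes, and 0 were lower. DESeq2 called only Ccnd1, but it gave 6 of the 7 no adjusted p. The portal and central ends did not differ by the test, at -0.02 (adjusted p = 0.89).

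The share of spots with a Ccnd1 UMI was also lower at both ends. In WT it went from 74.2% in bin 1 to 90.0% in bin 3, its highest, and 79.8% in bin 5. In C75S it was 75.8%, 84.3% and 77.5% in these bins, and was highest in bin 4 at 86.1%. The median depth of the spots was also highest in bin 3 in WT, at 18159 UMIs, but in bin 2 in C75S, at 21504. With every spot thinned to 10000 UMIs the fitted Ccnd1 value was 0.42 (adjusted p = 1.08e-06, edgeR's quasi-likelihood test). Markers of some non-parenchymal cells were higher in the middle as well, with 5 of 5 Kupffer cell, 4 of 4 stellate cell and 4 of 4 sinusoidal endothelium markers passing the same test. Of the other lists, 0 of 5 cholangiocyte, 1 of 4 portal connective tissue and 2 of 7 leukocyte markers passed as higher, and 1 of 2 erythroid genes passed as lower. The Kupffer cell sum was 816, 959 and 750 CPM in bins 1, 3 and 5 of WT and 1053, 1340 and 986 CPM in C75S. The stellate cell sum was 424, 582 and 571 CPM in these bins of WT and 521, 798 and 740 CPM in C75S. In WT the stellate cell and sinusoidal endothelium sums were highest in bin 4, at 631 and 496 CPM. In C75S these sums were highest in bin 3, at 798 and 512 CPM. Ccnd1 and the Kupffer cell sum were highest in bin 3 in both sections. The part of these cells in the Ccnd1 values was not tested.

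Myc was lower at the central than at the portal end in both sections, in C75S by less. In WT it was at 10.1, 9.34, 7.27, 6.29 and 5.42 CPM from bin 1 to bin 5. In C75S it was at 22.9, 23.0, 21.2, 20.4 and 18.7 CPM. Every C75S bin lay above every WT bin, and the slope was shallower in C75S, where the log2 ratio of the ends was 0.29 (-0.02 to 0.61) against 0.89 (0.34 to 1.46) in WT. A difference between these slopes was not tested. The fitted log2 ratio of portal over central was 0.55 (adjusted p = 0.0024, edgeR's quasi-likelihood test), and Myc was the only member that passed between the ends. With DESeq2 the value was 0.62 (adjusted p = 0.062) and with thinning to 10000 UMIs per spot 0.52 (adjusted p = 0.070, edgeR's quasi-likelihood test), about as large but past the threshold in neither. By section, thinning gave 1.06 (0.31 to 1.84) in WT and 0.13 (-0.35 to 0.62) in C75S.

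The portal end also held the bile ducts and portal tracts, with 5 of 5 cholangiocyte markers and 3 of 4 portal connective tissue markers higher there by the test. The cholangiocyte sum fell from 262 CPM in bin 1 to 30.8 CPM in bin 5 in WT and from 155 to 37.1 CPM in C75S. Without the 10% of spots richest in both marker lists, the fitted Myc value was 0.51 (adjusted p = 0.0091, edgeR's quasi-likelihood test). By section it was 0.86 (0.26 to 1.48) in WT and 0.22 (-0.12 to 0.56) in C75S.

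The genes of S phase to mitosis were lowest at the portal end in WT. There the summed level of Mki67, Top2a, Cdk1 and Ccna2 was 15.0, 21.9, 26.1, 26.6 and 25.7 CPM from bin 1 to bin 5, and each of the 4 genes had its lowest value in bin 1. In C75S the sum was 19.7, 20.3, 23.2, 19.6 and 16.4 CPM, highest in the middle and lowest at the central end. The log2 ratio of portal over central of this sum was -0.78 (-1.12 to -0.45) in WT and 0.27 (-0.07 to 0.61) in C75S. Without the portal-tract spots the values were -0.75 (-1.11 to -0.39) and 0.00 (-0.37 to 0.37), and with thinning to 10000 UMIs per spot they were -0.41 (-0.85 to 0.02) and -0.06 (-0.56 to 0.43). With the axis from Hal, Hsd17b13 and Sds over Cyp1a2 and Oat they were -0.70 (-1.04 to -0.37) and 0.45 (0.10 to 0.79). In CPM without TMM factors, the difference between the ends in C75S was thus within counting error except with the other axis genes. That in WT was within counting error only after thinning. The fitted values use TMM factors. With them the median gene of the fit lay at 0.007 between the ends, and without them at -0.09. Whether a section's interval near 0 includes 0 can thus depend on the scaling. Mki67 itself went from 5.78 CPM in bin 1 to 8.70 CPM in bin 5 of WT and from 7.60 to 4.66 CPM in C75S, in opposite directions. Its fitted portal over central value over both sections was 0.12 (adjusted p = 0.80, edgeR's quasi-likelihood test), which stands for neither section.

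Ccna2 was at 2.89 and 6.18 CPM in bins 1 and 5 of WT and at 2.49 and 3.10 CPM in C75S, a fitted log2 ratio of -0.67 that missed the threshold (adjusted p = 0.085, edgeR's quasi-likelihood test). By edgeR's quasi-likelihood test it passed without the portal-tract spots (-0.84, adjusted p = 0.040) and without TMM factors (-0.77, adjusted p = 0.031). It was at -0.26 (adjusted p = 0.60) with the other axis genes, at -0.44 (adjusted p = 0.26) as a linear trend and at -0.69 (adjusted p = 0.23) with thinning by the same edgeR test, and at -0.65 (adjusted p = 0.54) with DESeq2. Cdk1 ran in opposite directions before thinning, at -0.83 (-1.52 to -0.15) in WT and 0.40 (-0.21 to 1.03) in C75S, where the interval includes 0. With thinning to 10000 UMIs per spot it was at -0.06 (-0.87 to 0.76) and -0.20 (-1.11 to 0.71), on the same side of 0. Its fitted value without thinning was -0.07 (adjusted p = 0.91, edgeR's quasi-likelihood test), which stands for neither section. Top2a was at -0.38 (adjusted p = 0.43) and Mcm2 at 0.06 (adjusted p = 0.92) by the same edgeR test. Each bin held at most 88 UMIs of Mki67 and at most 64 of Cdk1, 54 of Mcm2, 51 of Ccna2 and 38 of Top2a.

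**Figure D3:**
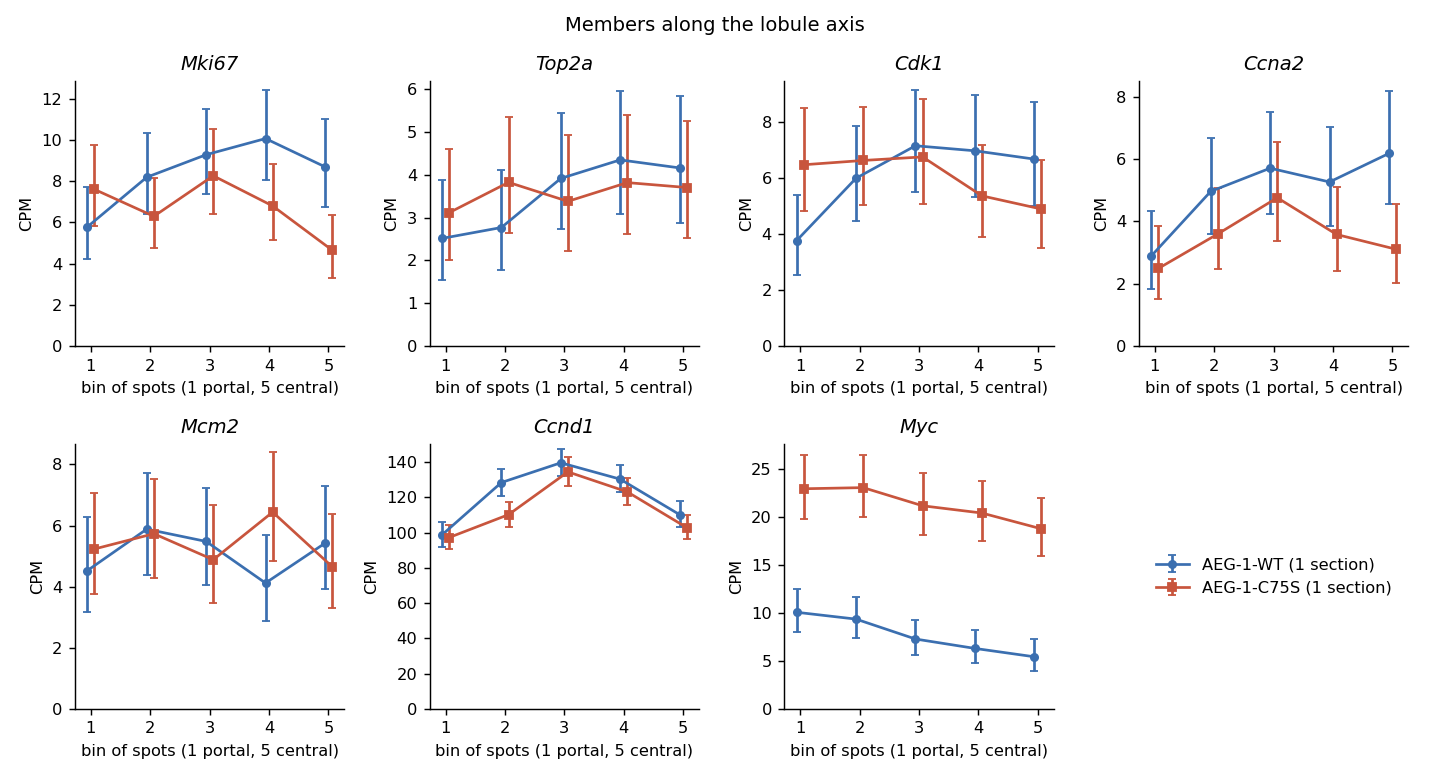
Level (CPM) of 7 members in bins of spots from the portal end (1) to the central end (5), in 1 WT section (circles) and 1 C75S section (squares), with 95% exact Poisson intervals. Ccnd1 is highest in bin 3 at 140 and 134 CPM, Myc declines toward the central end in both sections, and Mki67 moves in opposite directions.

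All 7 fitted values of middle over ends were above 0, with a median of 0.35, although Ccnd1 alone passed. Those of Myc (0.009) and Mcm2 (0.07) were close to 0. With thinning to 10000 UMIs per spot, Top2a (-0.40), Mcm2 (-0.08), Ccna2 (-0.03) and Myc (-0.03) fell below 0. The values that follow are without thinning. Ccna2 was at 0.55 (adjusted p = 0.18), Mki67 at 0.38 (adjusted p = 0.28) and Cdk1 at 0.35 (adjusted p = 0.41, all with edgeR's quasi-likelihood test). On the G2/M and mitosis list, 28 of 31 genes were above 0 with a median of 0.32, against 48.8% of all genes and a median of 0.00. None of the 31 passed the adjusted threshold by edgeR's quasi-likelihood test, and 3 (9.68%) were higher in the middle at an unadjusted p under 0.05, against 7.04% of all genes. DESeq2 called 0 of them but gave 30 no adjusted p. The G1/S and DNA replication list had 17 of 25 above 0, a median of 0.09, 0 adjusted calls by edgeR and 1 at an unadjusted p under 0.05. DESeq2 called 0 of these 25 and gave 24 no adjusted p.

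Between the ends, 13 of the 90 list genes passed, of which 9 (10.0%) were higher at the central end and 4 (4.44%) at the portal end, against 9.44% and 9.42% of all genes. DESeq2 also called 3 of the 13, namely Cdk6, E2f6 and Btg1. Higher at the central end were Cdk6, the partner kinase of cyclin D, with a log2 ratio of portal over central of -0.81 (adjusted p = 5.3e-11), Wee1 at -0.81 and Tk1 at -0.35. Cdk6 climbed in every step from 25.0 to 53.1 CPM in WT and from 26.8 to 44.7 CPM in C75S, a profile unlike the middle peak of Ccnd1. Hjurp, Cdkn2c, E2f6, Ccnd3, Ccng1 and Mycn were also called there. Higher at the portal end were Btg1, an antiproliferative gene, at 0.38 (adjusted p = 7.6e-06), Pola1, the catalytic subunit of DNA polymerase alpha, at 1.12 (adjusted p = 0.0044), E2f5 at 0.58 and Rb1 at 0.35, all by edgeR's quasi-likelihood test.

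Which members met on the same spot was described by the share of spots with a second member among spots with the first, set against the share among spots without it, weighted to the same depth over 10 classes of UMIs per spot. Of the WT spots with Mki67, 11.5% (36 of 312) also held Top2a, against 5.70% at matched depth, a ratio of 2.02 (interval 1.44 to 2.74). In C75S, 12.6% (31 of 247) did, against 5.73%, a ratio of 2.19 (1.52 to 3.03). The intervals cover the counting error of the first share only, spots are not replicates, and no test was made. Mki67 and Top2a thus shared spots in both sections, with intervals that overlap.

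Among the 6 pairs of Mki67, Top2a, Cdk1 and Ccna2, the ratio ran from 1.30 to 2.02 with a median of 1.66 in WT, and the interval lay above 1 for 4 pairs. In C75S it ran from 0.79 to 2.19 with a median of 1.57, and 3 intervals lay above 1. The excess of a single pair could differ between sections, as for Ccna2 on spots with Top2a, with 17 of 145 spots in WT (ratio 1.49, 0.89 to 2.31) and 7 of 134 in C75S (0.79, 0.32 to 1.58), whose intervals overlap. The promoters printed above belong to members of these pairs.

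Mcm2 showed little excess with the same 4 genes, with median ratios of 1.11 and 1.07. The largest was Mcm2 on spots with Ccna2 in WT, at 1.86 (1.27 to 2.57), but the same pair was at 0.77 (0.39 to 1.34) in C75S. Pairs with Myc ran from 0.72 to 1.36 in WT and from 0.85 to 1.11 in C75S, with medians of 0.94 and 1.02. Since Ccnd1 was on most spots, the share of spots with Ccnd1 can hardly rise on those with another member, and its pairs were also counted as the other member on spots with Ccnd1. Mki67 was then at 1.248 (1.11 to 1.39) in WT but 0.85 (0.75 to 0.97) in C75S. Top2a was at 1.06 (0.89 to 1.251, which includes 1) and 0.70 (0.58 to 0.84). The C75S values below 1 came with the depth weighting. Unweighted, Mki67 was on 12.3% of C75S spots with Ccnd1 and 7.64% of those without, and Top2a on 6.32% and 5.67%. The 406 C75S spots without Ccnd1 were shallower (median 12676.5 against 20285 UMIs), and 31 held Mki67 and 23 Top2a. The intervals leave out the error of those counts, so no difference between the sections is drawn from these ratios. The share with Myc on spots with Ccnd1 was below that at matched depth, at 0.78 (0.69 to 0.88) and 0.85 (0.80 to 0.91). Unweighted, Myc was on 13.0% of WT spots with Ccnd1 and 13.1% of those without, and on 34.1% and 26.6% in C75S. Counted the other way, as Ccnd1 on spots with Myc, the ratios were 0.97 (0.91 to 1.01) and 0.98 (0.94 to 1.01), with intervals that include 1.

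**Figure D4:**
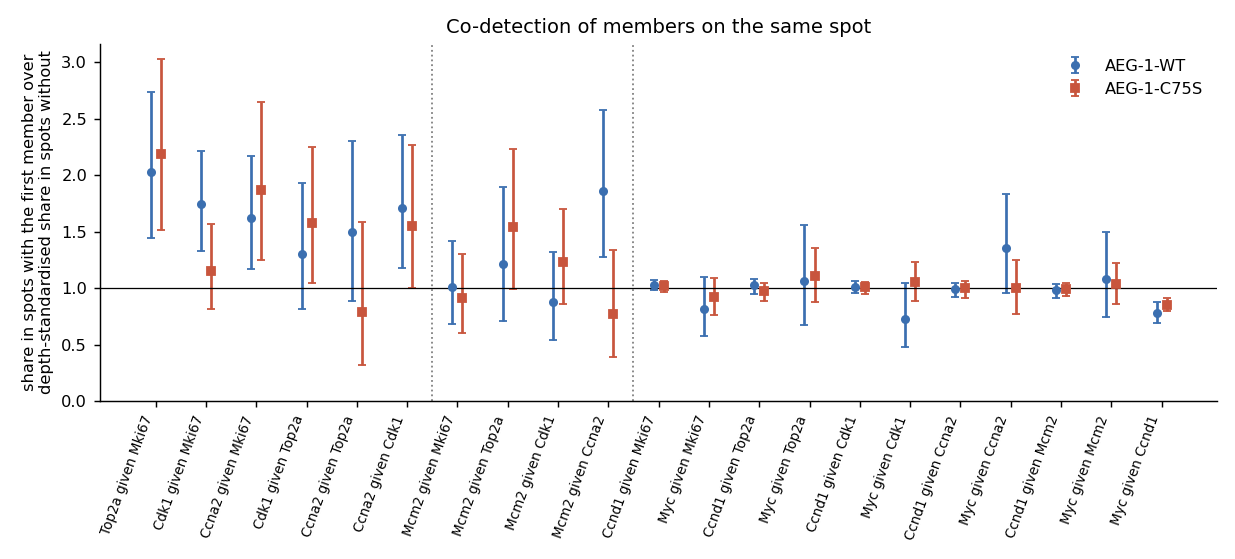
Share of spots with the member named before "given" among spots with the member named after it, divided by the depth-standardised share among spots without the latter. The axis title calls the member after "given" the first member. Shown are the 21 pairs of 7 members in the WT (circles) and C75S (squares) sections. Bars are 95% exact binomial intervals of the undivided share and the line marks 1. The 6 pairs left of the first dotted line have medians of 1.66 and 1.57, and those with Myc on the right run from 0.72 to 1.36. Pairs with Ccnd1 named before "given" are held near 1 because most spots have Ccnd1.

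At least 1 UMI of Mki67, Top2a, Cdk1 or Ccna2 was present on 712 WT spots (30.8%, 29.0 to 32.8) and 615 C75S spots (28.4%, 26.5 to 30.4). Most of them, 571 and 502, held only 1 of the 4 genes, and 15 and 14 held 3. All 4 genes met on 5 WT spots and 1 C75S spot. Of the 712 WT spots, 14.0% lay in bin 1 and 23.5% in bin 4, while the 615 C75S spots were spread from 17.6% in bin 5 to 22.0% in bin 2.

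Spots with a UMI of Mki67 or Top2a, 421 in WT and 350 in C75S, were set against all other spots for the summed level of each list. The G2/M and mitosis list, which holds neither gene, was at 206 against 165 CPM in WT (log2 ratio 0.33, 0.25 to 0.40) and at 175 against 143 CPM in C75S (0.29, 0.20 to 0.38). Both sections thus showed more mitotic transcripts where Mki67 or Top2a was found. The G1/S and DNA replication list was at 0.05 (-0.01 to 0.11) and 0.19 (0.12 to 0.26), and the list of G0/G1 cyclins, CDKs and pocket proteins at 0.01 and 0.00. The MYC network was at -0.02 and -0.05, with intervals that include 0.

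Of the cell type lists, the cholangiocyte and Kupffer cell sums were higher on spots with Mki67 or Top2a in both sections, with intervals above 0. The cholangiocyte sum was at 153 against 123 CPM in WT (log2 ratio 0.31, 0.22 to 0.40) and 117 against 92.1 CPM in C75S (0.34, 0.23 to 0.45). Over all spots, Spp1 made up 108 of 129 CPM of this sum in WT and 80.4 of 96.6 CPM in C75S. The cholangiocyte ratios thus stand mostly for 1 gene. Kupffer cell markers were at 0.04 (0.003 to 0.08) in WT and 0.19 (0.16 to 0.22) in C75S. Portal connective tissue was at 0.29 (0.20 to 0.37) in WT and 0.04 (-0.10 to 0.18) in C75S. Erythroid genes were at -0.06 and -0.59. The 4 hepatocyte markers were at -0.03 and 0.02. Which cells of a spot held the Mki67 or Top2a transcripts was not tested.

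The 10 genes most raised on spots with Mki67 or Top2a, ranked by the smaller of both sections' CPM ratios among 12018 genes with at least 20 UMIs per section, were Krt80, Parpbp, Neil3, Ckap2, H2-Eb2, Nr4a3, Melk, Zfp947, Cenph and Nusap1. Nusap1, a spindle protein gene, was at 6.73 against 2.51 CPM in WT and 4.97 against 2.50 CPM in C75S. Ckap2, a cytoskeleton gene of mitosis, was at 2.76 against 1.27 CPM and 1.96 against 0.76 CPM. The ranking is a description of sparse counts, since 9 of the 10 genes had at most 23 UMIs on these spots in a section, and 2 of the 10 are on the lists above.

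Along the 10 bins, with each section centred, the profile of Ccnd1 was most like those of Eps15l1, Mrc1, Tgfb1, Arrb2 and Alg6, with Pearson r from 0.95 to 0.97 among 8733 genes with at least 500 UMIs. Mrc1 is a marker of sinusoidal endothelium and macrophages. The profile of Myc was most like those of Id1, Ly6e, Ednrb, Timp2 and Bicc1, with r from 0.96 to 0.98. The points share libraries and spots, and with 10 points and 8733 genes compared, such r values describe a ranking and carry no test.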

How the data were processed

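RNA was measured in 2 liver sections, 1 per genotype. The deposited UMI count tables are output of Space Ranger 2.0.1, run by the authors on the mm10 reference with the mouse probe set, without normalization or pooling, for spots under tissue. Per the submitters' notes, Seurat 4.3.0 was also used by the authors, and its output is not used here. No column of another sample was present (0 columns). Of 11 repeated symbols the first entry was used. Spot coordinates were not used.

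UMIs were summed over spots with at most 50000 UMIs and scaled to CPM with python 3.11.15, numpy 2.4.6, scipy 1.17.1 and pandas 2.3.3. Sums carry exact Poisson, shares exact binomial (Clopper-Pearson) and ratios of sums exact binomial intervals at 95%. Ratios between bins given by section were taken from CPM without TMM factors. No test between genotypes was possible. Genes that reached 50 UMIs in the sum of the sections, without Cyp2f2 and Cyp2e1 for the lobule axis, were fitted in R 4.3.3 with edgeR 4.0.16 (TMM factors, quasi-likelihood test, 4 residual degrees of freedom), and DESeq2 1.42.0 was an alternative. On simulated sums of 12002 genes with 200 changed between the ends, the test called 67% of those changed 1.5-fold and 85% of those changed 2-fold. Of its calls on these sums, 2.56% were false. These percentages hold for that setting only. The share of false calls among the 2264 genes called between the ends in the measured sums was not tested.

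The members and gene lists were chosen with earlier results of these data known. Named genes were the members, list genes past a threshold or past 1.5-fold with an interval off 1 (at most 6 per list), the 10 genes most raised on spots with Mki67 or Top2a, and the 5 genes most like Ccnd1 and Myc over the 5 bins of the lobule axis. The cell type lists were of hepatocyte, Kupffer cell, cholangiocyte, stellate cell, portal connective tissue, sinusoidal endothelium, leukocyte and erythroid markers. Alternatives were other spot filters, scalings, minimums, folds, thinning, depth bins, axis genes, samples in the fit, a linear trend and leaving out each section. Promoters came from RefSeq (GRCm38.p6).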

Additional observations from a re-analysis of the deposited data

Results flagged for a closer look

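Mki67 moved in opposite directions along the lobule in the 2 sections. Its log2 ratio of portal over central was -0.59 (-1.16 to -0.03) in WT and 0.71 (0.10 to 1.32) in C75S. The difference between the sections was not tested, since each genotype has 1 section. With the axis from Hal, Hsd17b13 and Sds over Cyp1a2 and Oat, the values were -0.86 (-1.44 to -0.30) and 0.71 (0.10 to 1.33). Without the 10% most portal-tract spots they were -0.52 (-1.13 to 0.08) and 0.45 (-0.21 to 1.12), and with spots thinned to 10000 UMIs -0.39 (-1.19 to 0.39) and 0.52 (-0.46 to 1.54), with intervals that include 0.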

How the results depend on the processing

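Ccnd1 passed as higher in the middle in every setting run, from 0.42 to 0.47, and the direction of Myc between the ends and between the sections was the same in all. Without C75S, or without WT, there is no test, and the Ccnd1 middle value was 0.42 and 0.43 and the Myc portal value 0.89 and 0.29. The number of members called between the ends was 2 without portal-tract spots and without TMM factors, which added Ccna2, and 0 with thinning and with DESeq2, which lost Myc. Genes called between the ends numbered 2264, of which 1131 were higher at the portal end, against 1143 with DESeq2 and, without TMM factors, 2944 with 799 higher at the portal end, where the median gene moved to -0.09. Genes called in the middle numbered 348, against 114 with thinning and 98 with DESeq2.

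Genes at least 1.5-fold higher or lower in C75S numbered 275 and 624. They were 509 and 1098 with a minimum of 10 UMIs, 172 and 331 with 200, 854 and 1726 at the lower of the other folds tried, where 3 members passed, and 72 and 170 at 2-fold. No other scaling moved a member's ratio out of its interval, and the Cdk1 ratio of -0.03 turned to 0.019 with TMM factors, 0.021 with DESeq2 size factors or the median gene set to 0, and 0.013 without the 20 most abundant genes. Lobule values of members that missed the threshold changed sign as follows. Between the ends, the other axis genes gave -0.048 for Mki67, 0.092 for Cdk1 and 0.086 for Ccnd1, and Mcm2 was at -0.11 without portal-tract spots, -0.38 with thinning and -0.043 without TMM factors. In the middle, Myc was at -0.00098 without the spot filter, -0.024 without portal-tract spots, -0.027 with thinning and -0.0031 with DESeq2, Mcm2 at -0.0076 without portal-tract spots and -0.081 with thinning, Top2a at -0.40 and Ccna2 at -0.032 with thinning. The causes were not tested, and the low UMI sums of these members limit all their values. No paired analysis was possible because each genotype has 1 section.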
